A study of Mus musculus with 12 samples.

Results

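The genes described here are 7 chemokines that have been used to mark regions of the mouse hair follicle (Ccl2, Ccl8, Ccl20, Cxcl12, Cxcl14, Cxcl16 and Cx3cl1) and the atypical chemokine receptor Ackr4, listed on the array under its older symbol Ccrl1. They were taken from a fixed list of names, and all 8 were measured among the 17853 genes of the study. Exon arrays were run on epidermal cells of female Gata6-mTomato reporter mice (background C57BL6/CBA), sorted by flow cytometry from back skin whose hair follicles were resting (telogen); per the labels the mice were matched for age, and the age is not given. All groups carry the reporter, a red fluorescent protein that marks cells in which Gata6 is active. The 4 populations, with 3 biological replicates each, were Gata6+Itga6− cells (Tomato+/ITGA6−), Gata6+Itga6+ cells (Tomato+/ITGA6+), CD34+ cells (CD34+/ITGA6+, without the reporter signal) and remaining basal cells (CD34−/ITGA6+, also without it). Integrin alpha 6 is carried by basal keratinocytes, which sit on the basement membrane, and CD34 marks the bulge, the stem cell region of the resting follicle. The labels call all 12 arrays sorted basal, although the Gata6+Itga6− cells were gated as lacking the integrin.

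Chemokines are small secreted or membrane-tethered proteins that direct the migration of leukocytes through G protein-coupled receptors. Atypical receptors such as ACKR4 bind chemokines without the usual signalling and remove them by internalisation, and ACKR4 takes up CCL19, CCL21 and CCL25. In mouse skin, keratinocytes of different follicle regions have been described as making different chemokines, which guide Langerhans cell precursors and other leukocytes into the epidermis.

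Promoter sequences are shown for the 3 genes called by the test over all 4 populations described below (Ackr4, Cxcl14 and Cxcl12). They are also shown for Ccl20, whose median over probe sets stayed at the level of silent genes. RefSeq's promoter table (build GRCm38.p6, not the build of the arrays) matched 6 of the 8 genes by symbol. Each line gives the 250 bases before the annotated start of the gene, 5′ to 3′ on the gene's strand. Capitals mark matches on either strand to the TATA box letters TATAAA, to the GATA-type letters AGATAA or, with another base before them, TGATAA, to the CCAAT box, or to the kappaB consensus.
Ackr4, chr9:104126644-104126893, minus strand: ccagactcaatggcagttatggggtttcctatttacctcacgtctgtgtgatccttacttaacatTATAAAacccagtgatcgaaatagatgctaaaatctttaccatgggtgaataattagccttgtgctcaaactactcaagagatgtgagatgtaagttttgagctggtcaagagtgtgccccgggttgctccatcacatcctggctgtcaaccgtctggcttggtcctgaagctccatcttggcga
Cxcl14, chr13:56296552-56296801, minus strand: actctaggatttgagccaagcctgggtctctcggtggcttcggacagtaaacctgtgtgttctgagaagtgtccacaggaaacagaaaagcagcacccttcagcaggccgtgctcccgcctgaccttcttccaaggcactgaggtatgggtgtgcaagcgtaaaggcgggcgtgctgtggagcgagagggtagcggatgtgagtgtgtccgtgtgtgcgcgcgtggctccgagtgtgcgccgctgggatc
Cxcl12, chr6:117168285-117168534, plus strand: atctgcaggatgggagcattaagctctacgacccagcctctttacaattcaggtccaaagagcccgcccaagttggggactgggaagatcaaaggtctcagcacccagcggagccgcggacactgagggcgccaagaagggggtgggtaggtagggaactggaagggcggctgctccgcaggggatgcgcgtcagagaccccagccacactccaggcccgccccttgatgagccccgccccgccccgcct
Ccl20, chr1:83116516-83116765, plus strand: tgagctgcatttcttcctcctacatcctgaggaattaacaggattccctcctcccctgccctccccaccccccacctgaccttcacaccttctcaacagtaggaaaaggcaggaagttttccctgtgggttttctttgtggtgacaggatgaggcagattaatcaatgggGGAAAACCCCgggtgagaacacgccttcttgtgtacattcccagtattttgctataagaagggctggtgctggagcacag
The Ackr4 window held TATAAA at positions −185 to −180 from the start, and the Ccl20 window held 1 kappaB match, read on the opposite strand, at −80 to −71. The windows of Cxcl14 and Cxcl12 held no match to these letters, and none of the 6 windows held AGATAA, the other GATA-type letters or CCAAT. Among all 32851 promoter windows of this length, 12.4% held the TATA box letters, 9.99% AGATAA, 7.94% the GATA-type letters that begin with T, 33.8% the CCAAT box and 5.0% the kappaB consensus. The Cxcl12 and Cxcl14 windows were rich in G and C (64.4% and 59.6%), with 14 and 16 CG pairs, and those of Ackr4 and Ccl20 less so (45.2% and 51.2%), with 5 and 2 CG pairs.

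A gene's level is the median of its exon probe sets on the scale log2(intensity + 1). The level of silent genes, 2.46, is the 95th percentile of the population means of odorant and pheromone receptor genes, genes used mainly in sensory epithelia. Levels can be compared between populations for a gene, but not between genes, since probe sets differ in brightness. Across genes, arrays of the same population had correlations of 0.935 to 0.957, and the upper quartile of intensity was 12.1 to 17.6 per array. The sort genes followed the gates: the mean Gata6 level was 5.84 for Gata6+Itga6− cells, 4.39 for Gata6+Itga6+ cells, 2.84 for CD34+ cells and 2.73 for remaining basal cells. Cd34 averaged 7.95 in CD34+ cells and 1.66 to 1.96 in the other populations. Itga6 was lowest in Gata6+Itga6− cells, at 6.02. All 8 bulge markers exceeded the level of silent genes in CD34+ cells, and 4, 5 and 5 did in Gata6+Itga6−, Gata6+Itga6+ and remaining basal cells. In these bulk samples, fewer cells of a type and less RNA per cell cannot be told apart.

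Among the 8 genes, Ackr4, Cxcl14 and Cxcl12 varied over the 4 populations by limma's moderated F test (p-values adjusted by Benjamini-Hochberg over the whole table, threshold 0.05). This is 3 of 8, where the test called 9.38% of all genes. Ackr4 and Cxcl14 kept this call in every alternative fit of the test. The Cxcl12 call was close to the threshold (F test adjusted p = 0.042). It was lost when any 1 of the remaining basal arrays, or some of the others, was left out, and with array brightness as a covariate. The Ackr4 level was high in each population with Itga6 and far lower in the Gata6+Itga6− cells. The Cxcl14 level was highest in CD34+ cells and lowest in Gata6+Itga6− cells. The Cxcl12 level was highest in CD34+ cells, with Gata6+Itga6+ cells next. Cxcl16 was called only in the pair of Gata6+Itga6+ and CD34+ cells, and Ccl2, Ccl8, Ccl20 and Cx3cl1 were called in none of the 6 pairs.

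**Figure D1:**
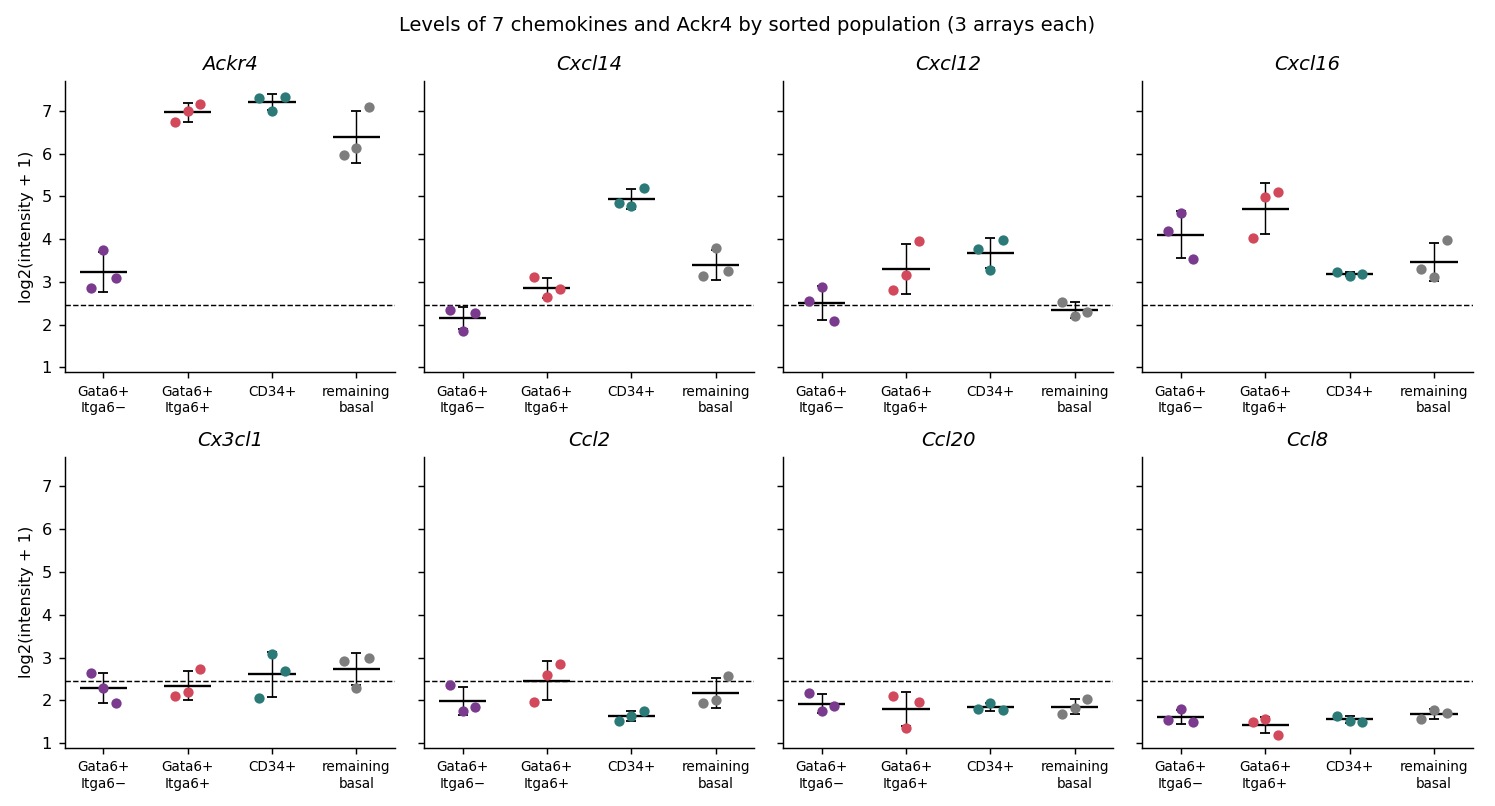
Level of each gene, as log2(intensity + 1), in the 4 sorted populations; points are arrays, horizontal bars the mean, error bars the SD (n = 3) and the dashed line the level of silent genes (2.46). Ackr4 arrays of Gata6+Itga6− cells lie at 2.86 to 3.76, and those of the other populations at 5.97 to 7.33; Ccl8 and Ccl20 lie under the dashed line on all 12 arrays.

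Ackr4, the scavenging receptor, was present in all populations gated on Itga6 and dropped in the Gata6+ cells gated as lacking it. Its log2 level was 2.86, 3.76 and 3.09 in the 3 Gata6+Itga6− arrays, against 6.73, 7.0 and 7.15 in Gata6+Itga6+ arrays. The level was 7.29, 7.0 and 7.33 in CD34+ arrays and 5.97, 6.12 and 7.08 in remaining basal arrays. No Gata6+Itga6− array overlapped with any array of the other populations, while the populations with Itga6 overlapped with each other. Relative to Gata6+Itga6+ cells, Ackr4 in Gata6+Itga6− cells was 13.2-fold lower (log2 change −3.73, SE 0.30, limma adjusted p = 0.000136). It was 15.7-fold lower than in CD34+ cells (−3.97, SE 0.30, adjusted p = 1.7e-05) and 8.90-fold lower than in remaining basal cells (−3.15, SE 0.30, adjusted p = 0.000157). The mean of 3.23 ± 0.47 in Gata6+Itga6− cells (SD, n = 3) was still above the level of silent genes on all 3 arrays. The summed level of 6 basal markers, Itga6 among them, was also lowest in Gata6+Itga6− arrays, at 29.4 to 32.8. It was 41.6 to 41.7 in Gata6+Itga6+, 37.9 to 41.6 in CD34+ and 42.6 to 46.5 in remaining basal arrays. That of 5 suprabasal markers was 35.1 to 36.5 in Gata6+Itga6− arrays, against 30.9 to 34.0 in Gata6+Itga6+, 16.5 to 20.1 in CD34+ and 28.5 to 29.8 in remaining basal arrays. The part of these markers in the Ackr4 result was not tested.

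Among the populations with Itga6, the order of the mean Ackr4 level was CD34+ (7.21 ± 0.18), Gata6+Itga6+ (6.96 ± 0.21) and remaining basal (6.39 ± 0.60). Neighbours in this order were not called: Gata6+Itga6+ minus CD34+ cells gave −0.25 (95% interval −0.92 to 0.43, limma adjusted p = 0.833), and Gata6+Itga6+ minus remaining basal cells gave 0.57 (−0.10 to 1.25, adjusted p = 0.521). CD34+ minus remaining basal cells gave 0.82 (0.14 to 1.49, adjusted p = 0.205). Without remaining basal replicate 3, the brightest of that population for Ackr4, this last difference became 1.16 and was called (adjusted p = 0.0279).

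Of the 5 Ackr4 probe sets, 3 varied over the populations in a fit to all 221205 single probe sets, which called 4.51% of them by the same F test. These 3 stood at 2.81, 4.83 and 3.20 in Gata6+Itga6− cells, against 7.30, 7.11 and 7.03 in Gata6+Itga6+ cells. In Gata6+Itga6− relative to Gata6+Itga6+ cells all were lower, with adjusted p-values of 0.00057, 0.0117 and 0.000373, where 0.933% of all probe sets were called. The other probe sets did not vary: the means of one ran from 2.66 to 3.31, and those of the other, under the level of silent genes, from 1.38 to 1.49.

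Among 8945 candidates above the level of silent genes, 3 genes followed Ackr4 most closely over the 12 arrays. They were Ppic (Pearson r = 0.985), a cyclophilin, Itgb1 (0.981), the integrin beta 1 chain, and Tgfbi (0.977), a secreted matrix protein. These correlations describe 12 arrays that share their populations and have no test. The mean Itgb1 level was 3.41 for Gata6+Itga6−, 6.97 for Gata6+Itga6+, 7.45 for CD34+ and 6.71 for remaining basal cells.

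**Figure D2:**
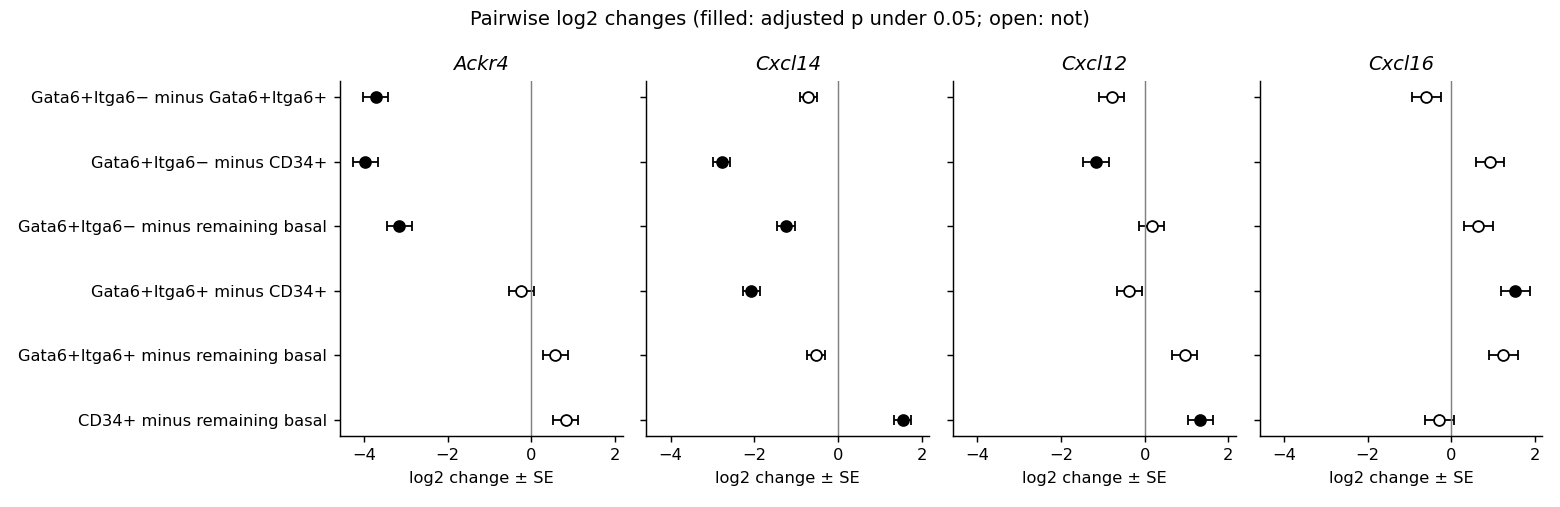
Log2 change of Ackr4, Cxcl14, Cxcl12 and Cxcl16 (x axis, with the SE of limma's fit) in each of the 6 pairs of populations (y axis); filled circles have an adjusted p under 0.05. For Ackr4 the 3 filled circles, at −3.97 to −3.15, are those of Gata6+Itga6− cells, and for Cxcl14 they are 4 of the 6 pairs.

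Cxcl14, a chemokine that epithelia make constitutively, had its highest level in CD34+ cells, followed by remaining basal, Gata6+Itga6+ and Gata6+Itga6− cells in that order. Its log2 level was 2.33, 1.86 and 2.27 in Gata6+Itga6− arrays and 3.11, 2.64 and 2.84 in Gata6+Itga6+ arrays. CD34+ arrays were at 4.85, 4.76 and 5.19 and remaining basal arrays at 3.13, 3.80 and 3.25. Every array of a population lay above every array of the next in this order, although Gata6+Itga6+ replicate 1 (3.11) and remaining basal replicate 1 (3.13) were close. By the gene's median, all 3 Gata6+Itga6− arrays lay under the level of silent genes, so folds against this population are lower bounds taken against that level. A called probe set described below was above that level in these cells, with a mean of 3.27.

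Gata6+Itga6− cells had at least 5.56-fold less Cxcl14 than CD34+ cells (log2 change −2.78, SE 0.21, limma adjusted p = 1.6e-05) and at least 1.91-fold less than remaining basal cells (−1.24, SE 0.21, adjusted p = 0.00617). In Gata6+Itga6+ cells Cxcl14 was 4.20-fold lower than in CD34+ cells (−2.07, SE 0.21, adjusted p = 0.000269). CD34+ cells had 2.91-fold more than remaining basal cells (1.54, SE 0.21, adjusted p = 0.00167). Neither of the lower steps passed the test: Gata6+Itga6− minus Gata6+Itga6+ cells gave −0.71 (95% interval −1.18 to −0.24, adjusted p = 0.127), and Gata6+Itga6+ minus remaining basal cells gave −0.53 (−0.998 to −0.06, adjusted p = 0.361). With the brightest probe set alone, both were called, at −1.83 (adjusted p = 0.0131) and −1.69 (adjusted p = 0.029). That probe set was chosen by its mean over these same arrays.

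Of 4 Cxcl14 probe sets, 2 carried the differences and 2 lay near or under the level of silent genes in all populations. The gene's median lies between them, so its changes against CD34+ cells are smaller than those of the 2 called probe sets. For Gata6+Itga6+ minus CD34+ cells these gave −3.89 and −3.50, against −2.07 for the median. The brightest averaged 2.20 in Gata6+Itga6−, 4.03 in Gata6+Itga6+, 7.92 in CD34+ and 5.72 in remaining basal cells. The other called probe set averaged 3.27, 3.79, 7.30 and 4.68 in the same order. Between CD34+ and remaining basal cells these probe sets differed by 2.20 (adjusted p = 0.00407) and 2.61 (adjusted p = 0.00275), in a comparison that called 2.50% of all probe sets. The genes closest to Cxcl14 over the 12 arrays were Sfrp1 (r = 0.963), a secreted Wnt antagonist, Col12a1 (0.951), a fibril-associated collagen, and Tcea3 (0.951), a transcription elongation factor. Sfrp1 averaged 2.21 in Gata6+Itga6−, 3.40 in Gata6+Itga6+, 8.68 in CD34+ and 4.92 in remaining basal cells.

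**Figure D3:**
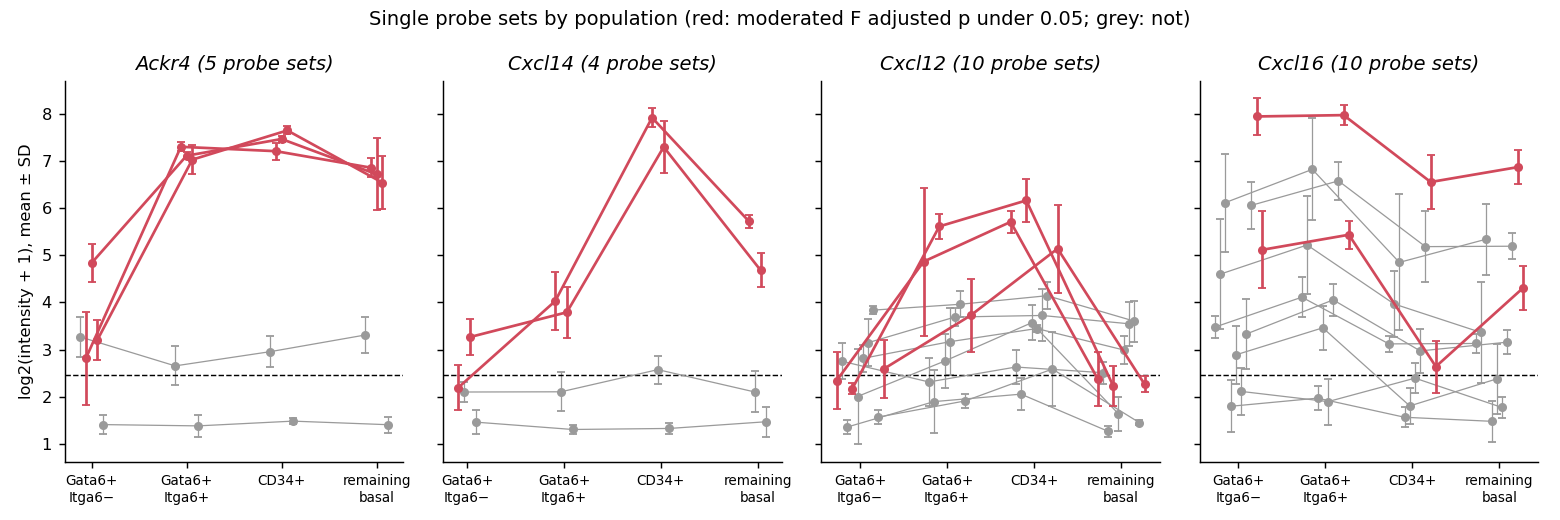
Mean ± SD (n = 3) of every probe set of Ackr4, Cxcl14, Cxcl12 and Cxcl16 in the 4 populations, as log2(intensity + 1); red probe sets varied over the populations by the moderated F test (3, 2, 3 and 2 of them), grey ones were not called, and the dashed line is the level of silent genes. Lines join the populations of a probe set and imply no order; the red Cxcl12 lines are high in Gata6+Itga6+ and CD34+ cells and near the dashed line in the other populations.

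Cxcl12, the ligand of CXCR4 and of the atypical receptor ACKR3, was higher in CD34+ cells than in remaining basal and Gata6+Itga6− cells. The log2 level was 2.56, 2.88 and 2.09 in Gata6+Itga6− arrays and 2.80, 3.15 and 3.95 in Gata6+Itga6+ arrays. CD34+ arrays were at 3.76, 3.28 and 3.97, and remaining basal arrays at 2.54, 2.20 and 2.29. CD34+ arrays lay above all arrays of the Gata6+Itga6− and remaining basal populations and overlapped with Gata6+Itga6+ arrays. CD34+ cells had at least 2.31-fold more Cxcl12 than remaining basal cells (log2 change 1.33, SE 0.30, limma adjusted p = 0.032). Gata6+Itga6− cells had 2.24-fold less than CD34+ cells (−1.16, SE 0.30, adjusted p = 0.0428).

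Both Cxcl12 calls were close to the threshold. That between CD34+ and remaining basal cells was lost without CD34+ replicate 1 or 3 (adjusted p = 0.0886 and 0.121), remaining basal replicate 1, 2 or 3 (0.061, 0.111 and 0.0783), Gata6+Itga6+ replicate 2 (0.0502), or the Gata6+Itga6− array of replicate 1 (0.052). That between Gata6+Itga6− and CD34+ cells was lost without CD34+ replicate 1 or 3 (0.111 and 0.148), remaining basal replicate 1, 2 or 3 (0.0579, 0.0614 and 0.0571), Gata6+Itga6+ replicate 2 (0.061), or the Gata6+Itga6− arrays of replicates 1 and 3 (0.103 and 0.155). Neither difference changed sign in any of these fits. The remaining pairs were not called: Gata6+Itga6+ minus CD34+ cells gave −0.37 (95% interval −1.04 to 0.31), Gata6+Itga6+ minus remaining basal cells 0.96 (0.28 to 1.63, adjusted p = 0.226) and Gata6+Itga6− minus Gata6+Itga6+ cells −0.79 (−1.47 to −0.12, adjusted p = 0.262).

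The brightest probe set of Cxcl12, chosen by its mean over all 12 arrays, divided the populations more sharply than the gene's median. Such a choice favours probe sets that are high in some populations, so its split is not separate support. Of 10 probe sets, 3 varied over the populations and 7 did not. Of the latter, one averaged 3.61 to 4.14 over the populations (F test adjusted p = 0.644). The brightest averaged 2.17 in Gata6+Itga6−, 5.61 in Gata6+Itga6+, 6.16 in CD34+ and 2.23 in remaining basal cells. In it, Gata6+Itga6+ cells exceeded remaining basal cells by 3.38 (adjusted p = 0.000388), in a comparison that called 0.528% of all probe sets, and Gata6+Itga6− cells were below Gata6+Itga6+ cells (log2 change −3.44, adjusted p = 0.000373). The other called probe sets averaged 2.34 and 2.59 in Gata6+Itga6−, 4.87 and 3.72 in Gata6+Itga6+, 5.71 and 5.14 in CD34+, and 2.39 and 2.27 in remaining basal cells. In them Gata6+Itga6+ replicate 1 (3.08 and 2.84) lay below replicate 2 (5.51 and 4.31) and replicate 3 (6.01 and 4.02). Neither of these probe sets passed the test for Gata6+Itga6+ minus remaining basal cells (adjusted p = 0.207 and 0.397) or for Gata6+Itga6− minus Gata6+Itga6+ cells (0.142 and 0.509). The genes closest to Cxcl12 over the 12 arrays were Pqlc3 (r = 0.950), Galnt18 (0.943), an enzyme of the family that starts O-linked glycosylation, and Pcnx (0.936).

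Cxcl12 is also made by dermal fibroblasts, whose markers were slightly higher in CD34+ cells. The summed level of 8 such markers was 14.7 to 14.9 in Gata6+Itga6−, 14.6 to 15.2 in Gata6+Itga6+, 17.6 to 18.6 in CD34+ and 14.7 to 14.8 in remaining basal arrays. Above the level of silent genes in CD34+ cells were Col1a1 (2.83), Col1a2 (2.89) and Fbln1 (4.24), and none of the 8 was in the other populations. The other 5, Col3a1, Dcn, Lum, Pdgfra and Pdgfrb, were under it in all populations, with Dcn at 1.63 and Pdgfra at 1.59 in CD34+ cells. Melanocyte markers, 7 in all, also had their highest sum in CD34+ arrays (17.0 to 17.7, against 13.8 to 15.7 elsewhere). Mitf (5.77 in CD34+ cells, against 2.85 to 3.97 elsewhere) and Mlana (3.01, against 2.29 to 2.53) carried this sum. Dct, Tyr, Tyrp1, Kit and Pmel were under the level of silent genes in all populations, with Kit highest in Gata6+Itga6− cells (2.38) and Pmel in remaining basal cells (2.40). The part of these markers in the Cxcl12 and Cxcl14 results was not tested.

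Cxcl16, made as a transmembrane protein and the ligand of CXCR6, had its highest levels in the Gata6+ populations. The log2 level was 4.18, 4.61 and 3.52 in Gata6+Itga6− arrays and 4.02, 4.99 and 5.11 in Gata6+Itga6+ arrays. CD34+ arrays were at 3.23, 3.13 and 3.18, and remaining basal arrays at 3.30, 3.12 and 3.98. Arrays of both Gata6+ populations lay above all CD34+ arrays, but those of Gata6+Itga6− cells overlapped with remaining basal replicate 3. Gata6+Itga6+ cells had 2.88-fold more Cxcl16 than CD34+ cells (log2 change 1.53, SE 0.34, limma adjusted p = 0.0324). The F test over all populations narrowly missed the threshold (adjusted p = 0.0553).

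The Cxcl16 call was lost without CD34+ replicate 1, 2 or 3 (adjusted p = 0.085, 0.093 and 0.0855), replicate 2 or 3 of Gata6+Itga6+ (0.114 and 0.122) or replicate 1 of Gata6+Itga6− (0.0528). The changes of Gata6+Itga6− minus CD34+ cells (0.92, 95% interval 0.16 to 1.69, adjusted p = 0.167) and of Gata6+Itga6+ minus remaining basal cells (1.24, 0.47 to 2.01, adjusted p = 0.156) were not called. With the mean of the probe sets in place of their median, both were called (0.84, adjusted p = 0.031, and 1.05, adjusted p = 0.0334). Of 10 probe sets, 2 varied over the populations. The brightest averaged 7.94 in Gata6+Itga6−, 7.97 in Gata6+Itga6+, 6.55 in CD34+ and 6.87 in remaining basal cells, and the other 5.11, 5.44, 2.64 and 4.30 in the same order.

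Cx3cl1, or fractalkine, the other membrane-tethered chemokine of the list and the ligand of CX3CR1, had a median over probe sets around the level of silent genes. Gata6+Itga6− arrays were at 2.65, 2.29 and 1.93, Gata6+Itga6+ arrays at 2.10, 2.19 and 2.73, CD34+ arrays at 2.06, 3.08 and 2.68, and remaining basal arrays at 2.91, 2.30 and 2.99. Arrays of all populations overlapped. The changes of the 6 pairs ran from −0.44 to −0.05, with limma adjusted p-values of 0.609 to 0.981, and none of its 12 probe sets varied by the F test. Of these 12, 9 were above the level of silent genes in at least 1 population, and the 3 brightest, at 4.65 to 5.14, 4.77 to 5.72 and 5.20 to 6.34 over the populations, were far above it in all.

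Ccl2, a monocyte attractant that acts through CCR2, had a median over probe sets near or under the level of silent genes. Gata6+Itga6− arrays were at 2.36, 1.75 and 1.84, Gata6+Itga6+ arrays at 1.96, 2.59 and 2.85, CD34+ arrays at 1.52, 1.62 and 1.75, and remaining basal arrays at 1.94, 2.02 and 2.56. Gata6+Itga6+ arrays lay above CD34+ arrays without overlap, but the change was not called (0.83, 95% interval 0.27 to 1.398, limma adjusted p = 0.114). It was called without Gata6+Itga6+ replicate 1 (1.09, adjusted p = 0.037) and with the mean of the probe sets (0.57, adjusted p = 0.0353). The brightest of its 5 probe sets was at 7.55 to 7.91 in all populations and did not vary. The probe set with the widest range averaged 1.60 in Gata6+Itga6−, 2.82 in Gata6+Itga6+, 1.4 in CD34+ and 2.12 in remaining basal cells (F test adjusted p = 0.173).

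Ccl20, the ligand of CCR6, and Ccl8, in the mouse a ligand of CCR8, had medians over probe sets under the level of silent genes on every array. Ccl20 averaged 1.93 ± 0.21 in Gata6+Itga6−, 1.81 ± 0.40 in Gata6+Itga6+, 1.84 ± 0.095 in CD34+ and 1.85 ± 0.18 in remaining basal cells (SD, n = 3). Ccl8 averaged 1.61 ± 0.16, 1.42 ± 0.19, 1.56 ± 0.079 and 1.68 ± 0.12 in the same order. Their pairwise changes ran from −0.04 to 0.12 and from −0.26 to 0.19, with all limma adjusted p-values at or above 0.466, and no probe set of either gene varied. Of 5 Ccl20 probe sets 2 were above the level of silent genes, the brightest at 5.04 to 5.64 in all populations (F test adjusted p = 0.622) and the other at 3.11 in remaining basal cells (adjusted p = 0.449). None of the 5 Ccl8 probe sets was above it in any population, so a difference in Ccl8 was not detectable at this signal.

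By comparison, the 8 genes were called as follows at a limma adjusted p under 0.05. Gata6+Itga6− minus CD34+ cells called 3 lower (Ackr4, Cxcl14 and Cxcl12) and 0 higher, where 7.96% of all genes were called, 3.22% higher and 4.74% lower. Gata6+Itga6− minus remaining basal cells called 2 lower (Ackr4 and Cxcl14), where 5.11% of all genes were called, 2.96% higher and 2.15% lower. Gata6+Itga6− minus Gata6+Itga6+ cells called 1 lower (Ackr4), where 3.18% were called, 1.17% higher and 2.01% lower. Gata6+Itga6+ minus CD34+ cells called 1 higher (Cxcl16) and 1 lower (Cxcl14), where 4.59% were called, 2.40% higher and 2.18% lower. CD34+ minus remaining basal cells called 2 higher (Cxcl14 and Cxcl12), where 5.0% were called, 3.32% higher and 1.67% lower.

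Gata6+Itga6+ minus remaining basal cells called 0 of the 8 genes by limma, where 1.36% of all genes were called, 1.07% higher and 0.286% lower. At an unadjusted p under 0.05 this pair held 3 of the 8, namely Cxcl12, Cxcl14 and Cxcl16. The share of all genes at that threshold is not given here, and the 1.36% does not apply to it. The comparisons share arrays, so their counts are not independent of each other. The median log2 change of the 8 genes was −0.54 for Gata6+Itga6− minus Gata6+Itga6+ cells, against −0.03 for all genes, and lay between −0.19 and 0.13 in the other pairs, against −0.02 to 0.04 for all genes.

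By their medians over probe sets, most other measured chemokine genes were at the level of silent genes in these cells. Besides the 8 genes, 57 chemokine ligands and receptors were listed, 49 were measured and 10 lay above that level in at least 1 population. Ccl19, Ccl21a, Ccl21b and Ccl21c, which encode ligands of ACKR4, and Ccl27a and Ccl27b were among those not measured. Of these 49, Ackr2 and Ccl7 differed in at least 1 pair, as did 12.1% of all genes. None of the 19 measured signalling receptors was called in any pair by limma. At an unadjusted p under 0.05 in at least 1 pair there were 3, with no share of all genes given for that threshold. A population mean above the level of silent genes was reached by 5 of the 19 (Ccr4, Ccr10, Cxcr1, Cxcr6 and Cx3cr1). Of the 18 measured CC ligands 3 reached that level (Ccl2, Ccl7 and Ccl11), and of the 16 other ligands 5 did (Cxcl10, Cxcl12, Cxcl14, Cxcl16 and Cx3cl1).

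Ackr2, an atypical receptor that scavenges inflammatory CC chemokines, had another pattern than Ackr4. It averaged 2.65 ± 0.10 in Gata6+Itga6−, 3.20 ± 0.60 in Gata6+Itga6+, 2.16 ± 0.18 in CD34+ and 3.92 ± 0.64 in remaining basal cells (SD, n = 3). In CD34+ cells it was at least 2.74-fold lower than in remaining basal cells (log2 change −1.75, SE 0.33, limma adjusted p = 0.0121), a call that ended with the brightest probe set (adjusted p = 0.807). A fit of only this pair ended the call as well. Ackr4 in the same pair was higher in CD34+ cells by 0.82 and not called. Ccl7, a CC chemokine related to Ccl2, rose just over the level of silent genes in Gata6+Itga6+ cells. It averaged 1.79 ± 0.17 in Gata6+Itga6−, 2.57 ± 0.24 in Gata6+Itga6+, 1.75 ± 0.071 in CD34+ and 1.98 ± 0.17 in remaining basal cells. Ccl7 was higher in Gata6+Itga6+ than in CD34+ cells (0.82, SE 0.14, adjusted p = 0.00868) and, in Gata6+Itga6− relative to Gata6+Itga6+ cells, lower (−0.78, SE 0.14, adjusted p = 0.017). The second call was lost without replicate 1 or 3 of Gata6+Itga6+ or replicate 1 or 3 of Gata6+Itga6− (adjusted p up to 0.0707). Array brightness as a covariate and a fit of only this pair ended it as well.

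Of 8 genes listed for chemokine shedding and cleavage, proteases and inactive rhomboids, 2 differed in at least 1 pair, where 12.1% of all genes did. Adam10, a membrane protease that sheds CXCL16 and CX3CL1, was lowest in CD34+ cells. It averaged 4.51 ± 0.36 in Gata6+Itga6−, 4.26 ± 0.48 in Gata6+Itga6+, 2.83 ± 0.23 in CD34+ and 4.41 ± 0.70 in remaining basal cells. The clearest pair was Gata6+Itga6− minus CD34+ cells (log2 change 1.68, SE 0.35, limma adjusted p = 0.0142), lost without CD34+ replicate 1 or Gata6+Itga6− replicate 2 (adjusted p up to 0.0576) and with the brightest probe set (0.711). Its calls for Gata6+Itga6+ minus CD34+ (1.43, adjusted p = 0.0491) and CD34+ minus remaining basal cells (−1.58, adjusted p = 0.0274) were lost without 10 and 5 of the 12 arrays, one at a time (adjusted p up to 0.168 and 0.107). Both were also lost with the brightest probe set (adjusted p up to 0.966 and 0.548 over all alternatives), and the Gata6+Itga6+ minus CD34+ change turned sign in 1 alternative. Rhbdf2, an inactive rhomboid needed for the related protease ADAM17, was highest in Gata6+Itga6− cells, at 3.69 ± 0.24, against 2.86 ± 0.21 in Gata6+Itga6+, 2.43 ± 0.18 in CD34+ and 2.48 ± 0.12 in remaining basal cells. It was higher in Gata6+Itga6− than in CD34+ (1.25, SE 0.16, adjusted p = 0.000594) and remaining basal cells (1.21, SE 0.16, adjusted p = 0.00115), also without any 1 array, but not with the brightest probe set (adjusted p = 0.283 and 0.677). The rise over Gata6+Itga6+ cells (0.83, adjusted p = 0.0197) was lost without Gata6+Itga6+ replicate 1 or 3 or replicate 1 or 2 of Gata6+Itga6− (adjusted p up to 0.0847). It was also lost with the covariate, other moderation, a fit of only this pair and the brightest probe set, and it turned sign in 1 alternative (adjusted p up to 0.975).

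**Figure D4:**
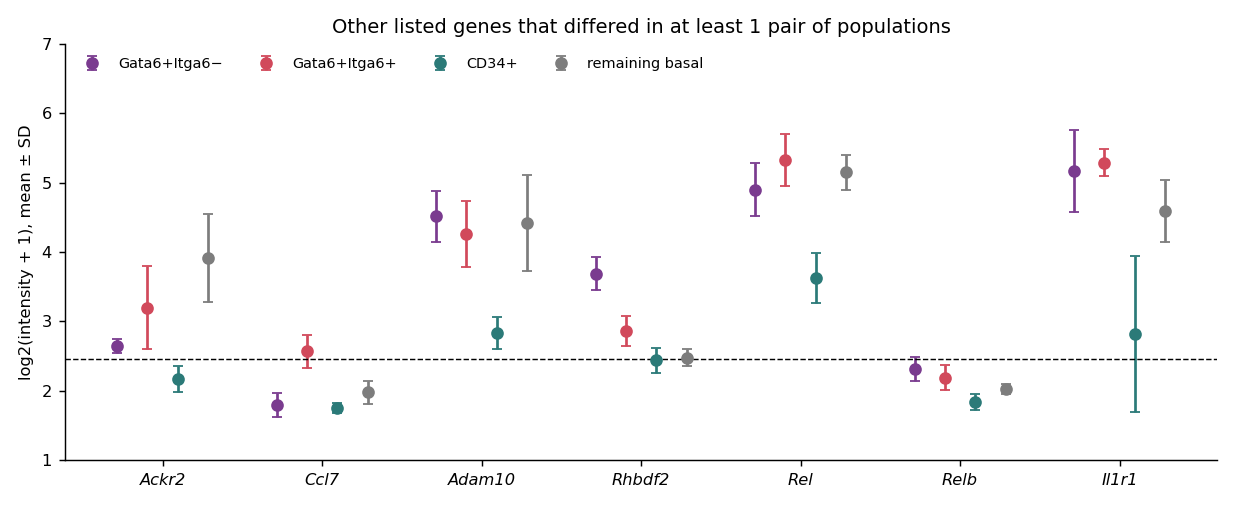
Mean ± SD (n = 3) of the listed genes outside the 8 that differed in at least 1 pair of populations, as log2(intensity + 1) on the y axis; colours are the populations and the dashed line the level of silent genes. Adam10, Rel and Il1r1 are lowest in CD34+ cells, and Ackr2 is highest in remaining basal cells.

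Markers of leukocytes, which carry many chemokine receptors and make some of the ligands, were low in all populations. Of 13 Langerhans cell and macrophage markers, 3 exceeded the level of silent genes in Gata6+Itga6− cells (H2-Aa, H2-Ab1 and H2-Eb1) and 1 in each other population. Their summed level was 26.7 to 29.3 in Gata6+Itga6−, 23.6 to 26.5 in Gata6+Itga6+, 23.2 to 26.5 in CD34+ and 24.2 to 25.5 in remaining basal arrays. The Langerhans cell marker Cd207 stood at 1.71 to 1.91 and the leukocyte marker Ptprc at 1.47 to 1.81 over the populations, under the level of silent genes. Of 5 measured T cell markers, Cd3e (2.73) and Cd3g (2.48) were above it in Gata6+Itga6− cells, with a summed level of 9.99 to 12.3 there, against 8.59 to 9.68 in Gata6+Itga6+, 8.66 to 10.6 in CD34+ and 10.2 to 12.2 in remaining basal arrays. Thy1, the highest of the 5, was above it in CD34+ (2.54) and remaining basal cells (3.88). No endothelial marker of 8 exceeded it in any population. The part of these markers in the chemokine results was not tested.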

How the data were processed

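Affymetrix mouse exon arrays were run on RNA of 12 samples. The submitters' processing notes name RMA, Affymetrix Power Tools and mm9, without versions, for the intensities of 235932 probe sets that the authors deposited. The scale was read as linear from the values (array medians 3.97 to 4.57, maxima 2172 to 2953), on which every log2 value here rests. The 221205 probe sets with 1 gene symbol were used, with symbols brought up to date through a RefSeq gene table. A gene's level was the median over probe sets of log2(intensity + 1), which understates changes of dim genes. Limma 3.58.1 in R 4.3.3 was fitted to 17853 genes on all 12 arrays, with 1 mean per population and moderated variances (prior degrees of freedom 2.12, residual 8). P-values were Benjamini-Hochberg adjusted over all genes and called under 0.05. Where the dimmer mean lay under 2.46 that level stood in for it in the fold, written as at least. The number of arrays limits the precision. The procedure was tested on simulated data.

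The 8 genes, the lists and the level of silent genes were chosen with earlier results of these data known. Named genes are the 8, the sort genes and the 3 genes closest in pattern to each gene called by the F test. Also named is every listed chemokine, receptor, shedding and cleavage or NF-kappaB gene called in at least 1 pair. Uncalled chemokine genes and markers above the level of silent genes were named after their values were seen. Same-numbered replicates, and arrays sharing the position letter in the labels, were not paired: correlations of their deviations from population means were −0.14 to 0.28 and −0.17 to 0.28. Alternatives were the mean or brightest probe set, only probe sets above the level of silent genes, a pseudocount of 4, quantile normalization, a filter on dim genes, array brightness as a covariate, blocks, other moderation, fits of 2 populations and leaving out each array.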

Additional observations from a re-analysis of the deposited data

How the results depend on the processing

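The 3 Ackr4 and 4 Cxcl14 calls held under all 23 alternatives, whereas the 2 Cxcl12 calls and the Cxcl16 call were each lost under some. No called change of the 8 genes reversed its sign. Of the 38 changes that were not called, 8 were called under at least 1 alternative and 18 changed sign in at least 1 fit without being called.

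With the replicate block, 1 of the 8 genes was called in Gata6+Itga6+ minus CD34+ cells, in place of 2, and 1 in CD34+ minus remaining basal cells, in place of 2; the position letter as a block gave the same counts of 1 and 1. The gene left was Cxcl14 each time. A fit of only the populations compared also called 1 in Gata6+Itga6+ minus CD34+ cells, and array brightness as a covariate called 1 in CD34+ minus remaining basal cells. The way probe sets were combined added calls: in Gata6+Itga6+ minus remaining basal cells 2 genes were called with the mean (Cxcl12 and Cxcl16) and 2 with the brightest probe set (Cxcl12 and Cxcl14), in place of 0. In Gata6+Itga6− minus Gata6+Itga6+ cells, 2 were called with the mean, 3 with the brightest and 2 with only probe sets above the level of silent genes, in place of 1. Shares of all genes called are given for the main fit only, and not for any alternative, leaving out arrays included. The counts under alternatives therefore show how calls depend on processing, and are not a result about the 8 genes.

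Leaving out each of the 12 arrays gave 2 to 4 genes by the F test over the 4 populations, 1 to 3 in Gata6+Itga6+ minus CD34+ cells, 0 to 0 in Gata6+Itga6+ minus remaining basal cells and 1 to 1 in Gata6+Itga6− minus Gata6+Itga6+ cells. It gave 1 to 2 in CD34+ minus remaining basal cells, 2 to 3 in Gata6+Itga6− minus CD34+ cells and 2 to 2 in Gata6+Itga6− minus remaining basal cells. The causes were not tested. Signal over background limits Ccl8, which had no probe set above the level of silent genes; for Ccl2, Ccl20 and Cx3cl1 this holds for the median over probe sets.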

Other observations

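Among 16 genes of the NF-kappaB pathway, which controls many chemokine genes, 13 lay above the level of silent genes in at least 1 population and 3 were called in at least 1 pair, where 12.1% of all genes were, each lowest in CD34+ cells. By the F test 2 of the 16 were called, against 9.38% of all genes. Rel, an NF-kappaB subunit, averaged 4.90 ± 0.38 in Gata6+Itga6−, 5.32 ± 0.37 in Gata6+Itga6+, 3.62 ± 0.36 in CD34+ and 5.15 ± 0.26 in remaining basal cells (SD, n = 3). It was 3.26-fold higher in Gata6+Itga6+ than in CD34+ cells (log2 change 1.70, SE 0.26, limma adjusted p = 0.00406) and 2.88-fold lower in CD34+ than in remaining basal cells (−1.53, SE 0.26, adjusted p = 0.00664). Both calls held without any 1 array and were lost with the brightest probe set (adjusted p = 0.254 and 0.215). Rel was also called higher in Gata6+Itga6− than in CD34+ cells (1.28, adjusted p = 0.0126). This call was lost without replicate 2 or 3 of Gata6+Itga6− (adjusted p up to 0.0551) and with the brightest probe set (0.293).

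Il1r1, the signalling receptor of interleukin 1, averaged 5.17 ± 0.59 in Gata6+Itga6−, 5.29 ± 0.19 in Gata6+Itga6+, 2.82 ± 1.1 in CD34+ and 4.59 ± 0.45 in remaining basal cells. It was 5.54-fold higher in Gata6+Itga6+ than in CD34+ cells (2.47, SE 0.50, adjusted p = 0.0187), a call lost without CD34+ replicate 1 or 2 or any Gata6+Itga6+ replicate (adjusted p up to 0.0737). The brightest probe set and a fit of only this pair ended it as well (adjusted p up to 0.173). Il1r1 was also called higher in Gata6+Itga6− than in CD34+ cells (2.35, SE 0.50, limma adjusted p = 0.0157). That call was lost without CD34+ replicate 1 or 2 or Gata6+Itga6− replicate 2 or 3 (adjusted p up to 0.0665). A fit of only those 2 populations ended it too. Relb was called between Gata6+Itga6− and CD34+ cells (0.48, SE 0.13, adjusted p = 0.0454) with both means under the level of silent genes, and the call held in 4 of 22 alternatives. The median log2 change of the 16 genes was 0.34 in Gata6+Itga6+ minus CD34+ cells, against 0.02 for all genes. These are unlike sets: 8745 of all 17853 genes lay under the level of silent genes in all populations, while 13 of the 16 exceeded it. The same limit holds for the shares of all genes called.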
